A study of Drosophila melanogaster with 2 samples.

Results

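The proteasome genes of Drosophila melanogaster were examined for occupancy by the CG1620 protein at their promoters. The members were the protein-coding genes whose symbol starts with Prosalpha, Prosbeta, Rpn or Rpt followed by a digit, which gave 48 of the 13945 protein-coding genes on X, 2L, 2R, 3L, 3R and 4. They divide into 32 canonical subunit genes and 16 duplicated copies. The canonical genes comprise 7 alpha and 7 beta subunits of the core particle, 10 subunits of the base and 8 of the lid. A subunit gene with a symbol of another form is not among them, and Sem1 is counted with the associated genes below. The copies, whose symbols add R or T to that of a canonical subunit, are called testis-type copies here, although the sources used here give no expression for them. All 48 members had a RefSeq product name of a proteasome or regulatory particle subunit.

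The proteasome degrades proteins that carry ubiquitin chains. Its core particle is a barrel in which outer rings of alpha subunits gate the entrance and inner rings of beta subunits hold the proteolytic sites. The regulatory particle caps the barrel: its base unfolds substrates with a ring of ATPases, and its lid removes the ubiquitin. These roles were worked out mainly in yeast and human cells. The canonical subunits are used in every cell, and in flies the transcription factor encoded by cnc raises their expression when the proteasome is inhibited. Several of the duplicated fly copies are known from the male germ line.

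Chromatin immunoprecipitation with sequencing (ChIP-seq) was carried out with an antibody against green fluorescent protein (GFP) on whole adult females, of unknown age, from 1 transgenic line that stably expresses CG1620 with GFP fused to its C-terminus. There was 1 group of 2 biological replicates, numbered 2 and 3, which came from separate biosamples of that line. No second genotype, treatment or sex was analysed here, and the control was not used here, so every result is a comparison of genes or peaks within the same flies. Whole animals mix all tissues, and the promoter that drives the fusion is not given in the labels.

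On the dm6 build, 30000 candidates were listed for the pooled data and for each replicate, ranked by the signal value of the authors' peak caller, with the strongest candidate at rank 1. The lists end at signals of 18.9 (pooled), 14.2 (replicate 2) and 6.69 (replicate 3). The optimal set of the irreproducible discovery rate (IDR) procedure, which weighs the agreement of ranks between replicates, held 3894 peaks. Its weakest pooled signal was 70.0. The strongest IDR peak of each member had the same rank in this set as in the pooled list, down to Rpt6 at rank 3665. For the members the set thus acted as a cut on pooled signal, and a gene below it need not differ between replicates. Signals were not scaled between lists, so values are compared within a list only. The lists hold no read counts, so depth is unknown. A gene was counted as having a promoter peak where a peak summit lay within 500 bp of one of its annotated transcription start sites.

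The sequences under the summits are shown for members whose promoters differ in what they hold. Each line gives 101 bases of the strand on which the named gene is transcribed, from the RefSeq sequence of the same release 6 genome assembly as dm6. Capitals mark ATCGAT, the short form of the DNA replication-related element (DRE), to which the factor DREF binds at many fly housekeeping promoters. The first pair, at the lid genes Rpn5 (chr3R:5789224-5789324, plus strand) and Rpn11 (chr2L:5059982-5060082, minus strand), lay under strong summits and held no match. The next 3, at the base genes Rpn1 (chr3L:19914896-19914996, plus strand), Rpn2 (chr3R:29153423-29153523, plus strand) and Rpt6 (chrX:21315957-21316057, plus strand), are summits that held 1, 2 and 2 matches. The last pair is centred on a match rather than a summit: Prosbeta6 (chr3L:16610409-16610509, minus strand) had no candidate peak in any list, and Rpn12 (chr3L:16582765-16582865, plus strand) had candidates below the IDR set.
Rpn5: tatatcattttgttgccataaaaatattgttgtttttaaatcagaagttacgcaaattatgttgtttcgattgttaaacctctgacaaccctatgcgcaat
Rpn11: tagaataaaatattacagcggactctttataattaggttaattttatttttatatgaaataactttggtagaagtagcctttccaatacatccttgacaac
Rpn1: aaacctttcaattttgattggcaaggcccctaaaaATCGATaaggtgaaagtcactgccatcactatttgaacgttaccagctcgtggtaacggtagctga
Rpn2: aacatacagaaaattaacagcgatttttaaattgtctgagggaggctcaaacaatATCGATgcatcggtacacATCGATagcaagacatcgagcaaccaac
Rpt6: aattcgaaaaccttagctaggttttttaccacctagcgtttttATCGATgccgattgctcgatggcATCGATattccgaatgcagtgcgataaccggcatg
Prosbeta6: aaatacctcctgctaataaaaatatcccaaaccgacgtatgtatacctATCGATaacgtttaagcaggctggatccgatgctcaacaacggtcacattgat
Rpn12: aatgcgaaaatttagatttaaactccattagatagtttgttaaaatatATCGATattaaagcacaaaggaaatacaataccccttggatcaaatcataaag
The G and C content of the printed stretches ran from 26.7% in Rpn11, without a match, and Rpn12, with 1, to 44.6% in Rpt6. A match is a run of letters, and it does not show that a factor binds there.

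Of the 48 members, 18 had an IDR promoter peak, or 37.5% (exact binomial 95% interval 24.0 to 52.6%, which covers counting error only), beside 26.3% of all protein-coding genes. The particles of the proteasome differed in this count. The regulatory particle had a peak at 14 of its 18 canonical genes (77.8%, interval 52.4 to 93.6%), and the core particle at 4 of 14 (28.6%, interval 8.39 to 58.1%). Within the regulatory particle, 9 of the 10 base genes and 5 of the 8 lid genes had a peak. Within the core, peaks lay at 3 of the 7 alpha genes and 1 of the 7 beta genes. None of the 16 copies had one (interval 0 to 20.6%). No test was made of these differences, because genes are not replicates. The intervals of the regulatory and core particles overlap, as do those of base and lid and of alpha and beta genes.

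**Figure D1:**
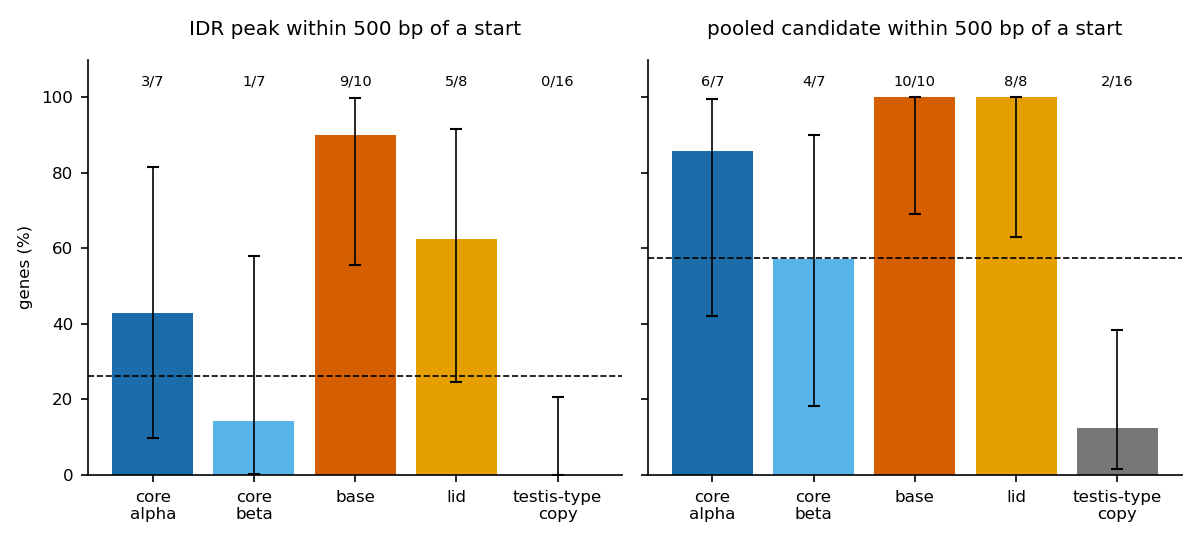
Share of genes with an IDR peak (left) or a pooled candidate (right) whose summit lies within 500 bp of a start, in percent, for the 5 classes of proteasome gene, with counts above the bars. Error bars are exact binomial 95% intervals and dashed lines the shares of all protein-coding genes (26.3% and 57.5%); at left the base stands highest (9 of 10) and the copies at 0 of 16.

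The longer list of pooled candidates reached most of the remaining canonical genes. A pooled candidate lay at 30 of the 48 members (62.5%), beside 57.5% of all protein-coding genes, and at 28 of the 32 canonical genes (87.5%, interval 71.0 to 96.5%). All 10 base and all 8 lid genes had one, as did 6 of 7 alpha and 4 of 7 beta genes. Candidates of replicate 2 alone lay at 31 members, beside 57.6% of coding genes, and those of replicate 3 alone at 29, beside 52.6%. When as many of the strongest candidates were taken from 1 replicate as there were IDR peaks, replicate 2 gave 17 members beside 25.9% of coding genes, and replicate 3 gave 17 beside 25.4%. In either replicate these 17 were canonical genes, with 13 of 18 in the regulatory particle and 4 of 14 in the core.

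**Figure D2:**
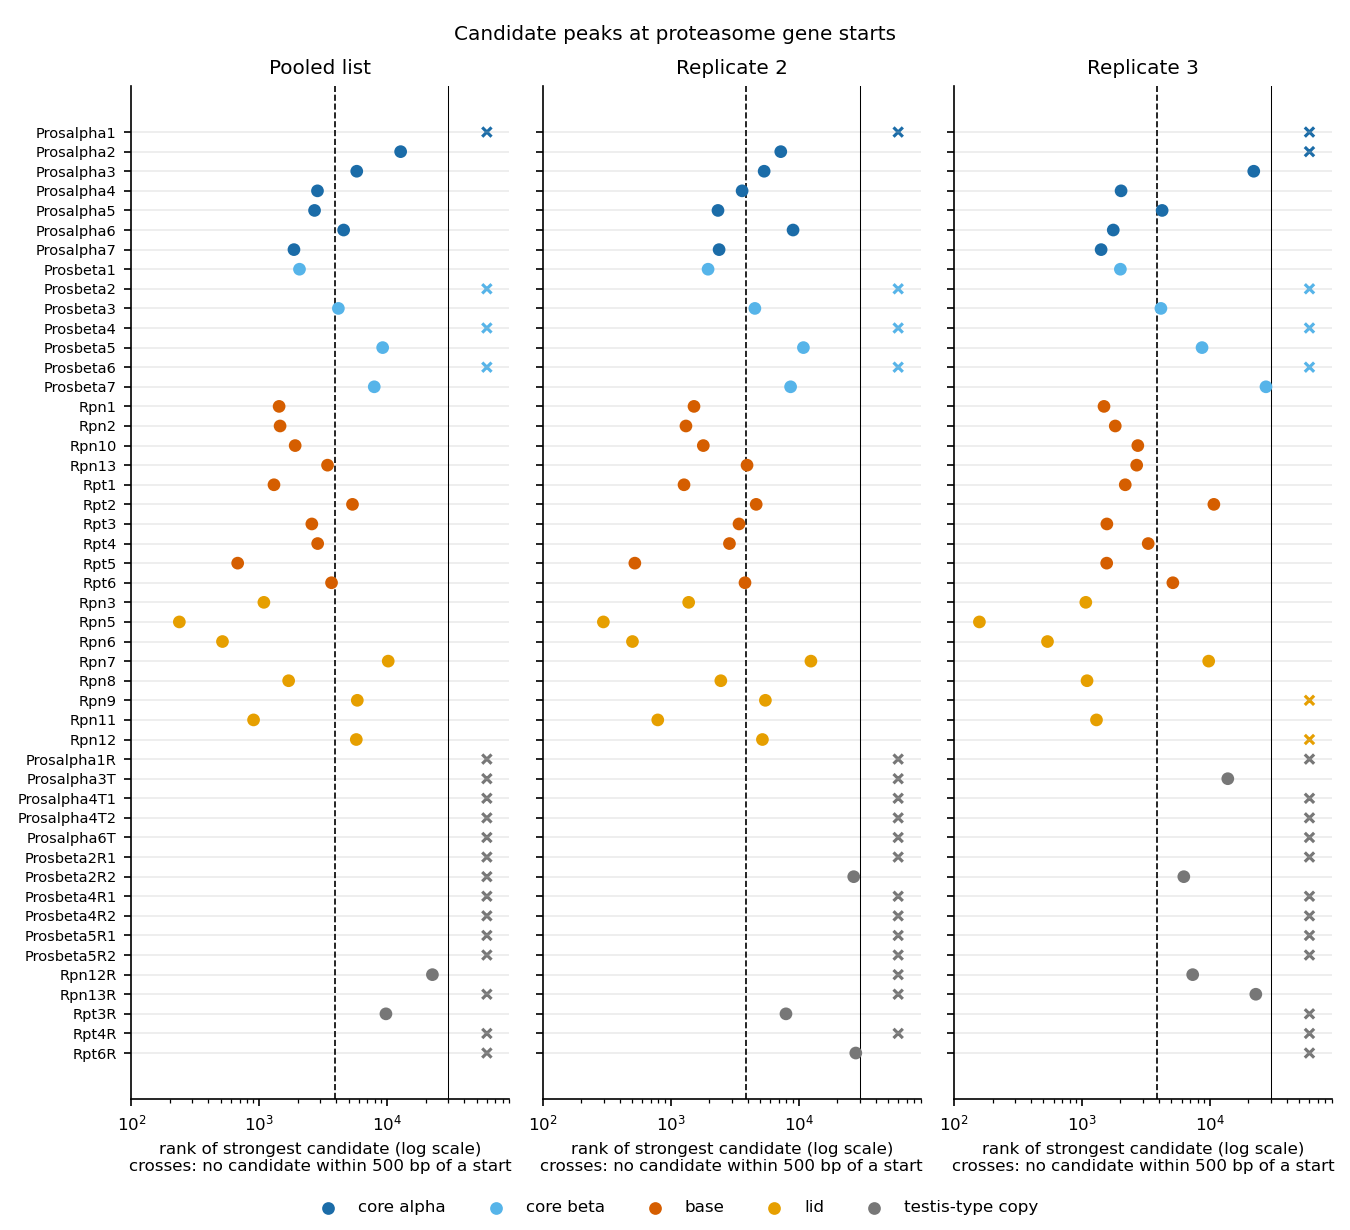
Rank of the strongest candidate within 500 bp of a start for each of the 48 members in the pooled list, replicate 2 and replicate 3 (log scale, strongest at the left). Crosses mark genes with no candidate, the dashed line rank 3894 and the thin line rank 30000; lid and base genes lie furthest left, led by Rpn5 at ranks 237, 298 and 158, and most copies are crosses.

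The lid held the strongest peaks among the members, with a median pooled signal of 184 over its 5 genes with an IDR peak (range 126 to 336). The PCI-domain scaffold subunits Rpn5, Rpn6 and Rpn3, and the MPN-domain pair of Rpn11, the enzyme that removes ubiquitin from substrates, and its partner Rpn8, made up this set. Rpn5 had a signal of 336 in the pooled list, 224 in replicate 2 and 113 in replicate 3, at ranks 237, 298 and 158. That summit lay 219 bp before its start in an intron of Hat1, which encodes a histone acetyltransferase. It lay nearer the start of Hat1, 110 bp after that start. A second IDR peak of Rpn5, with a signal of 86.6 at rank 2963, lay 17 bp before the Rpn5 start and overlapped the first. Counted for the nearest coding start only, Rpn5 kept this weaker peak, and the peak of signal 336 went to Hat1. Rpn6 had signals of 247, 180 and 68.4, at ranks 515, 503 and 538, so the gene ranked almost alike in all lists. Rpn11 followed with signals of 184, 143 and 41.7, at ranks 901, 793 and 1299. No other coding gene had a start near the Rpn11 summit, which lay 242 bp before the gene in intergenic sequence (2L, 5060032).

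Rpn3 had signals of 166, 105 and 46.8, at ranks 1085, 1383 and 1072, under a summit 15 bp before its start that it shares with l(2)37Bb. Rpn8 had signals of 126, 73.8 and 46.0, and its rank moved from 2467 in replicate 2 to 1096 in replicate 3. The peaks of Rpn6 and Rpn8 lay at a second annotated start inside the gene, in an intron of the longer transcript, and each was shared with a neighbour, ave and Slik. The other lid genes had pooled candidates below the IDR set, at rank 5724 for Rpn12 (signal 52.3), 5828 for Rpn9 (51.5) and 10165 for Rpn7 (35.5). Rpn12 and Rpn9 ranked 5215 and 5501 in replicate 2 and had no candidate in replicate 3, while Rpn7 ranked 12480 and 9784. The nearest replicate 3 summits lay 526 bp from the start of Rpn12, just outside the window, and 2010 bp from a start of Rpn9. The lid genes thus split into 5 that ranked within 3894 in every list and 3 that did so in none.

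The base had the most complete set, with a median signal of 117 over 9 genes (range 72.9 to 216). Its ring of ATPases, which unfolds substrates, is encoded by Rpt1 to Rpt6, and 5 of these 6 genes had an IDR peak. Rpt5 had signals of 216, 177 and 36.6 in the pooled list, replicate 2 and replicate 3, at ranks 677, 525 and 1561. Its peak was 125 bp wide, where every other member's IDR peak was 400 bp wide, and it was shared with RanBP3. Rpt1 had signals of 147, 110 and 28.1, at ranks 1301, 1272 and 2180, under a summit in an intron of CG17985. These ATPase genes both ranked lower in replicate 3 than in replicate 2. Rpt3 had signals of 96.1, 58.9 and 36.4, at ranks 2571, 3422 and 1566, and so stood higher in replicate 3. Its summit lay 188 bp before the start and is shared with CG11122. Rpt4 had signals of 88.8, 66.5 and 20.6, at ranks 2856, 2881 and 3294, under a summit shared with mldr. Rpt6 had the weakest member peak, with signals of 72.9, 54.5 and 15.3 at ranks 3665, 3811 and 5135 under a summit in an intron of CG1801. The ATPase genes thus ran from Rpt5, which only Rpn5 and Rpn6 exceeded among the members, to the weakest, Rpt6, which fell outside the strongest 3894 in replicate 3.

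All 4 base genes outside the ATPase ring had an IDR peak. Rpn1 and Rpn2 encode the large scaffolds of the base, and Rpn10 and Rpn13 its ubiquitin receptors. Rpn1 had signals of 140, 99.2 and 37.9, at ranks 1427, 1522 and 1487. Rpn2 had signals of 139, 108 and 32.5, at ranks 1452, 1317 and 1821, under a summit shared with Slbp. The scaffold genes therefore stood side by side in the pooled list. Rpn10 had signals of 117, 90.2 and 23.8, at ranks 1905, 1800 and 2733, and it was the only member with an IDR peak whose strongest summit lay after its start, by 7 bp. Rpn13 had signals of 77.4, 53.1 and 24.2, at ranks 3411, 3954 and 2678, under a summit shared with CtsL1. Its rank in replicate 2 was just outside the strongest 3894. Rpt2 was the 1 base gene below the IDR set, with a signal of 55 at rank 5344, at ranks 4662 and 10739 in the replicates.

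In the core particle the 4 genes with an IDR peak had a median signal of 102 (range 89.1 to 118). Prosalpha7 had signals of 118, 75.3 and 39.2, at ranks 1864, 2391 and 1412, under a summit shared with CG1671. Prosalpha5 had signals of 92.8, 76.2 and 17.1, at ranks 2700, 2344 and 4233, and no other coding gene started near it. These alpha genes thus ranked almost alike in replicate 2 and stood apart in replicate 3, with Prosalpha7 the stronger. Prosalpha4 had overlapping IDR peaks, 1 at rank 2846 (signal 89.1) 321 bp before its start and 1 at rank 2911 (87.6) 106 bp before it. Both were shared with kat80, which encodes a subunit of the microtubule-severing enzyme katanin, and the first lay within a kat80 intron. The first had a candidate in replicate 2 at rank 3618 and none in replicate 3 that overlapped it by at least 50%. The second ranked 3808 and 2022. Prosbeta1, the caspase-like protease subunit, had signals of 111, 85.9 and 30.2, at ranks 2059, 1961 and 1997, under a summit shared with Rrp42.

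The other core genes ranged from just below the IDR set to no candidate at all. The members next inside the set were Rpt4 (88.8), Rpn13 (77.4) and Rpt6 (72.9), and those next outside were Prosbeta3 (66.6, rank 4145), Prosalpha6 (61.9, rank 4558) and Rpt2 (55). Prosbeta3 ranked 4552 and 4141 in the replicates. Prosalpha6 ranked 9049 in replicate 2 and 1757 in replicate 3, the widest difference among members near the threshold, and replicate 3 alone would have placed it among the strongest 3894. Further down were Prosalpha3 (rank 5770, signal 51.9), Prosbeta7 (7906, 41.5), Prosbeta5, the chymotrypsin-like protease subunit (9198, 37.7), and Prosalpha2 (12712, 31.1). Prosalpha2 ranked 7255 in replicate 2 and had no candidate in replicate 3. Prosbeta2, the trypsin-like protease subunit, and Prosbeta4 and Prosbeta6 had no candidate in any list. Their nearest pooled summits lay 568, 893 and 1122 bp from a start. Of the 3 protease subunits, therefore, 1 had an IDR peak, 1 a weak candidate and 1 none.

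Prosalpha1 had no candidate in any list either, but its promoter could not be assessed. Prosalpha1 and Prosalpha1R have starts 3093 bp apart on 2R, are 100% identical over the length of the shorter gene and encode identical proteins. Every 31-base word within 500 bp of either start occurred elsewhere in the genome, so a read of that length from there has no single place. Of the 180 protein-coding genes with starts repeated to that extent, none had an IDR peak and none had a pooled candidate. The sources used here do not say how the authors treated such reads. The other 46 members had at most 10.7% repeated words, the highest being Rpn3, and 43 of the 48 had none. Without the identical pair, 18 of 46 members (39.1%), 4 of 13 core genes (30.8%) and 0 of 15 copies (interval 0 to 21.8%) had an IDR peak.

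Among the copies, a candidate was rare in any list. Pooled candidates lay at Rpt3R (rank 9756, signal 36.4) and Rpn12R (rank 22518, signal 22.5), a count of 2 of 16 (12.5%, interval 1.55 to 38.3%), beside the 57.5% of all coding genes. Rpt3R ranked 7966 in replicate 2 and had none in replicate 3, where the nearest summit lay 509 bp from a start. Rpn12R ranked 7336 in replicate 3 and had none in replicate 2, where the nearest summit lay 5706 bp away. Replicate 2 had further candidates at Prosbeta2R2 (rank 26964) and Rpt6R (27991). Replicate 3 had them at Prosbeta2R2 (6253), Prosalpha3T (13799) and Rpn13R (22852). Prosbeta2R2 was thus the 1 copy with a candidate in both replicates, but at different places. The summits lay 57 bp after its start in replicate 2 and 358 bp after it in replicate 3. Its nearest pooled summit lay 510 bp from the start, just outside the window of 500 bp. In the 3 lists, 10 of the 16 copies (62.5%), beside 33.4% of all coding genes, had no candidate: Prosalpha1R, Prosalpha4T1, Prosalpha4T2, Prosalpha6T, Prosbeta2R1, Prosbeta4R1, Prosbeta4R2, Prosbeta5R1, Prosbeta5R2 and Rpt4R. The nearest IDR summit to a copy lay between 2204 bp (Prosbeta2R2) and 69930 bp (Prosbeta4R2) from its start, with a median of 37184 bp. No male was analysed here, so occupancy at these genes in testis was not measured.

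The copies and their parents were compared by protein sequence and by peak. Each of the 16 copies was closest in sequence to the canonical subunit it is named for, with identities from 36.0% for Prosbeta2R2 to 100% for Prosalpha1R. The ATPase copies Rpt6R (88.7%), Rpt3R (82.0%) and Rpt4R (81.7%) were the most alike to their parents after it. Their parents Rpt6, Rpt3 and Rpt4 are all on X and all had an IDR peak, while Rpt6R, Rpt3R and Rpt4R are on 3R, 3R and 3L and had none. Prosalpha4, the other canonical gene on X, also had an IDR peak, and its copies Prosalpha4T1 and Prosalpha4T2 on 3R and 2R had no candidate. Thus all 4 canonical genes on X had a peak, beside 30.5% of coding genes on X, and the 2 copies on X, Prosbeta2R1 and Rpn13R, had none. Of these 4, Rpt6 alone kept its peak when each peak was counted for the nearest coding start only, and none kept it among the stronger 1947 IDR peaks. Of the 12 canonical genes that have a copy, 5 had an IDR peak (41.7%), and of the 20 without one, 13 did (65.0%). Most genes with a copy, Prosalpha1 among them, belong to the core particle, which had the lower share of peaks. These shares therefore mix the particles. In the regulatory particle, Rpn13, Rpt3, Rpt4 and Rpt6 have a copy and had a peak, while Rpn12 has a copy and had none. The regulatory genes without a copy all had a peak except Rpt2, Rpn7 and Rpn9. In the core, Prosalpha4 alone of the genes with a copy had a peak. Core genes without a copy had a peak at Prosalpha5, Prosalpha7 and Prosbeta1 and none at Prosalpha2, Prosbeta3, Prosbeta6 and Prosbeta7. A link with having a copy was not tested. Single exons made up 6 of the copies, and 3 lay inside another gene, Prosalpha4T1 in CG42322, Rpn12R in Sytbeta and Rpn13R in rg and CG15465.

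Promoters shared with a neighbour were common among the canonical genes. Another protein-coding start lay within 500 bp of 21 of the 32 (65.6%), against 29.3% of all coding genes, and of 3 of the 16 copies. Where there was such a neighbour, 12 of 21 canonical genes (57.1%) had an IDR peak, beside 50.5% of all coding genes with one. Where there was none, 6 of 11 (54.5%, interval 23.4 to 83.3%) had a peak, beside 16.2% of all coding genes without one. None of the 13 copies without a neighbour had a peak, and their interval, 0 to 24.7%, covers this 16.2%. The canonical genes without a neighbour were Rpn1, Rpn10, Rpn11, Rpt1, Rpt6 and Prosalpha5, with an IDR peak, and Rpn12, Prosalpha2, Prosalpha3, Prosbeta6 and Prosbeta7, without. Of the regulatory particle genes, 5 of 6 without a neighbour and 9 of 12 with one had a peak. In the core it was 1 of 5 and 3 of 9. A shared peak cannot be given to 1 gene of a pair: of the 20 IDR peaks at member promoters, 14 (70.0%) were shared by at least 2 coding genes, against 42.2% of the 2883 IDR promoter peaks of coding genes. When each peak was counted only for the nearest coding start, Prosalpha4, Prosbeta1, Rpt3, Rpt4 and Rpt5 lost theirs to the neighbour. That left 13 members, beside 18.9% of all coding genes counted in the same way.

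**Figure D3:**
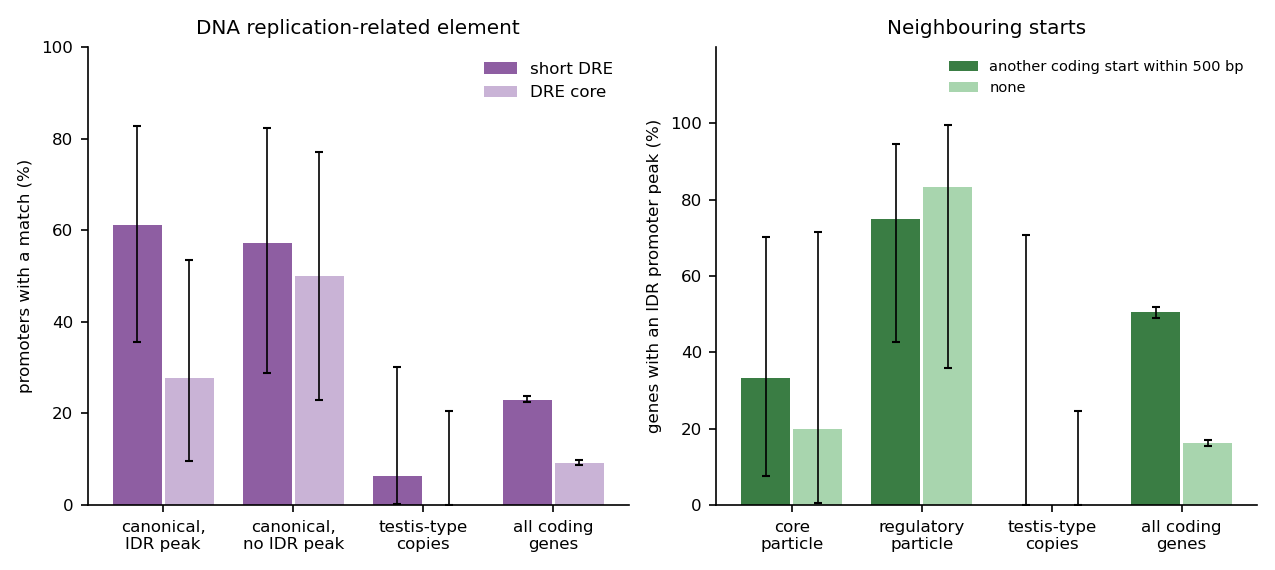
Left, share of promoters (250 bp before to 50 bp after the start, in percent) that hold the short DRE or the DRE core, for canonical proteasome genes with and without an IDR peak, copies and all coding genes. Right, share of genes with an IDR promoter peak in percent, split by whether another coding start lies within 500 bp. Error bars are exact binomial 95% intervals; the short DRE stands near 60% in both canonical classes (61.1 and 57.1%), and the regulatory particle above the core in both classes of neighbour.

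The member peaks had signals in the middle of the range of bound promoters. The strongest peak of the 18 members had a median signal of 122 (quartiles 93.6 to 161), beside 133 (94.8 to 210) over the 3662 coding genes with an IDR promoter peak. The summit lay upstream of the start in 17 of the 18 genes (94.4%), beside 86.2% of the 3662, at a median of 72.5 bp before it, beside 90 bp. In 11 of the 18 (61.1%) it lay within 100 bp of the start, beside 50.3%. Of the 20 peaks, 19 had a candidate in both replicates that overlapped by at least 50%, and all 20 did at any overlap. The pair of Rpn5 peaks was matched to the same candidate in each replicate, which is counted for both. Both replicates ranked 16 of the 20 within the strongest 3894. Spearman's rho between the replicates' ranks was 0.66 over the 19 peaks, given as a description because these peaks were chosen on the pooled signal of the same replicates.

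**Figure D4:**
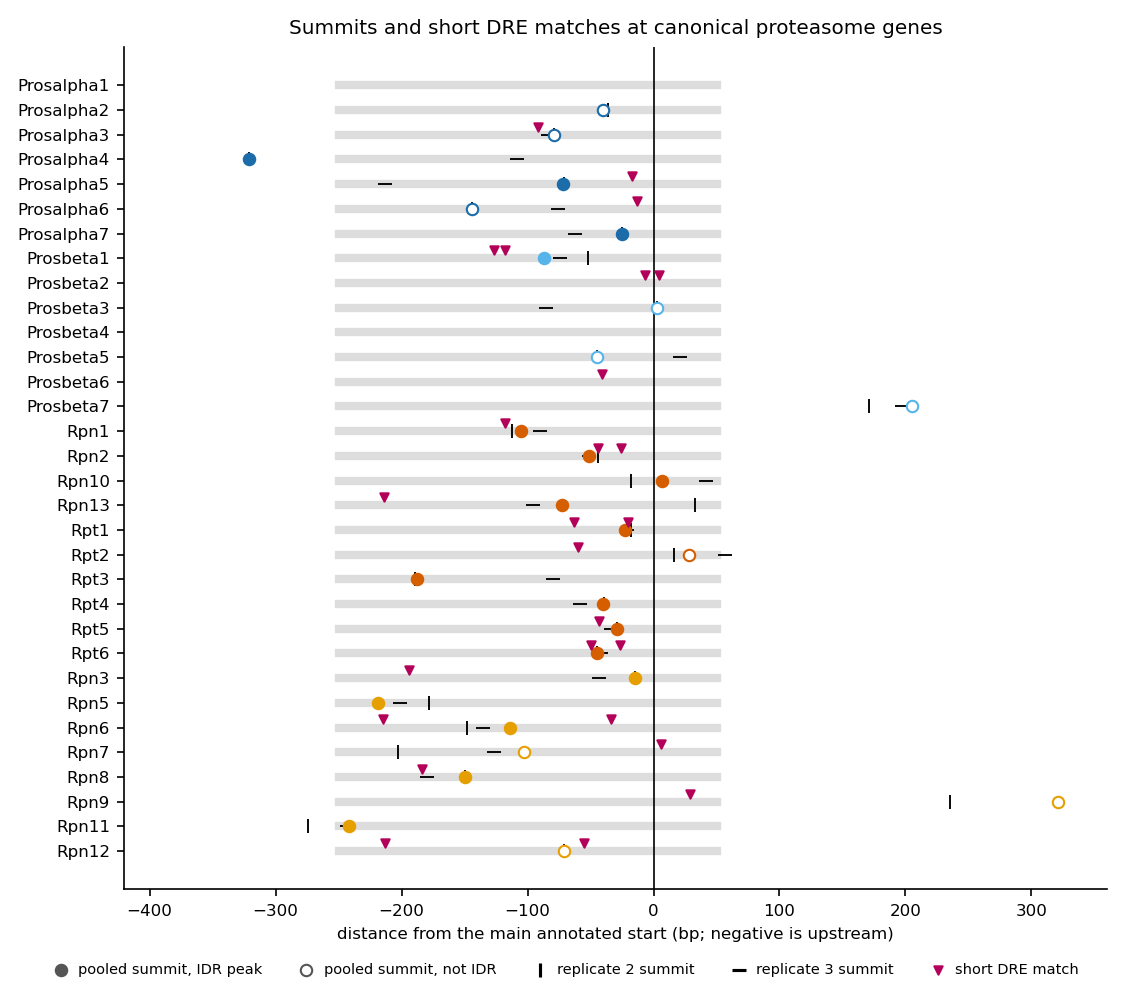
Position of candidate summits and of ATCGAT matches relative to the main annotated start of the 32 canonical genes, in bp with upstream negative. Circles are pooled summits, filled where the gene has an IDR peak and coloured by particle as in the plot of ranks, vertical and horizontal ticks are the summits of replicates 2 and 3, triangles are matches, and grey bars mark the 300 bp searched; among genes with an IDR peak the circles lie between -321 bp (Prosalpha4) and 7 bp (Rpn10).

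The promoters of the canonical genes often held the DRE, both with and without a peak. In the 300 bp from 250 before to 50 after the start, ATCGAT on either strand lay in 19 of the 32 canonical promoters (59.4%, interval 40.6 to 76.3%), beside 23.0% of all coding promoters and 33.8% of those with an IDR peak. The longer DRE core TATCGATA, which contains ATCGAT, lay in 12 of 32 (37.5%), beside 9.23% and 16.9%. Canonical genes with an IDR peak held ATCGAT in 11 of 18 promoters (61.1%), and canonical genes without one in 8 of 14 (57.1%). In the same classes TATCGATA lay in 5 of 18 (27.8%) and in 7 of 14 (50%). The intervals of the ATCGAT shares with and without a peak (35.7 to 82.7% and 28.9 to 82.3%) overlap almost fully. Of the copies, only Prosbeta2R1 held ATCGAT, a count of 1 of 16, and none held TATCGATA.

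By particle, ATCGAT lay in 6 of 8 lid promoters, 7 of 10 base promoters, 3 of 7 alpha and 3 of 7 beta promoters. Within 50 bp of an IDR summit, Rpn1, Rpn2, Rpt1, Rpt6 and Rpn8 carried it without TATCGATA, with midpoints 118 bp before the start in Rpn1, 44 and 26 bp before it in Rpn2, 63 and 20 bp before it in Rpt1, 50 and 27 bp before it in Rpt6, and 184 bp before it in Rpn8. Rpt5 and Prosbeta1 carried TATCGATA there. Rpn5 and Rpn11, which had strong peaks, held no ATCGAT in their promoters, and neither did Rpn10, Rpt3, Rpt4, Prosalpha4 and Prosalpha7. In all, ATCGAT lay within that distance in 7 of the 20 member peaks (35.0%, interval 15.4 to 59.2%), beside 14.8% of the IDR promoter peaks of coding genes, and TATCGATA in 2 of 20, beside 5.93%. Conversely Prosbeta2 and Prosbeta6, with no candidate in any list, held TATCGATA 7 and 41 bp before the start.

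The other 6 motifs were searched on both strands in the same promoters. The motif 1 core GGTCACAC lay in 6 of 32 canonical promoters (18.8%, interval 7.21 to 36.4%). It lay in 7.79% of all coding promoters, which that interval covers, and in 13.9% of those with an IDR peak. TGACNNNGC, the core of the antioxidant response element that the cnc product and its partner Maf-S bind, lay in 5 of 32 (15.6%), beside 8.59%. The interval of this share, 5.28 to 32.8%, covers 8.59%. The holders of TGACNNNGC were Prosalpha2, Prosbeta3, Rpn1, Rpt6 and Rpn7, of which Rpn1 and Rpt6 are among those with an IDR peak. GAGAG lay in 3 of 32 (9.38%), beside 30.2%, and in 6 of the 16 copies (37.5%). The E-box CAGCTG lay in 2 of 32 (6.25%), beside 17.8%, TATAAA in 14 of 32 (43.8%), beside 45.5%, and AACCCCC in none, beside 1.58%. The median G and C content was 33.5% in canonical promoters, 32.7% in the copies and 38% in all coding promoters. Its part in these shares was not tested.

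Genes that act with the proteasome or ubiquitin, and genes of complexes built like the lid, were counted for comparison, from a list of 43 symbols of which 40 were found in the annotation. The ubiquitin and proteasome associated genes had an IDR promoter peak at 19 of 24 (79.2%, interval 57.8 to 92.9%), beside the 26.3% of all coding genes given above. Over all 40 listed genes, with the COP9 signalosome and eIF3, it was 27 (67.5%, interval 50.9 to 81.4%). The list was chosen with earlier results of these data known, so its shares are a description only. Many of these peaks were shared with a neighbouring gene, among them those of ntc, PI31, Uch-L5, RpS27A and Plap. Others, such as those of cnc, Uba1 and Kcmf1, were not. Among the ubiquitin and proteasome associated genes the strongest peak was at ntc (signal 288, rank 355). This gene encodes an F-box protein that binds the proteasome regulator PI31, and PI31 itself had a signal of 94.5. Both partners of the proteasome stress response in flies were in the set, cnc with a signal of 190 at rank 868 and maf-S with 105 at rank 2256; the summit at cnc lay 363 bp after a start. Uch-L5 (126) and Usp14 (99.5), deubiquitinases that bind the regulatory particle, had peaks, and Usp14 had no partner candidate in replicate 3.

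Ubiquitin genes and the genes of its activation were also in the set, with RpS27A at 222, Ubi-p63E at 123, Ubi-p5E at 113 and Uba1, the activating enzyme, at 129. TER94, the segregase that feeds substrates to the proteasome, had 152, and its cofactors Plap and Npl4 had 280 and 74.6. The shuttle proteins Rad23 and rngo had 86.6 and 91.1. The ligases Kcmf1, Ube3a and Ufd4 had 137, 123 and 78.5, and the peptide N-glycanase gene Pngl had 114. Ufd4 and Rad23, like Usp14, had no partner candidate in replicate 3. Pomp, which encodes the maturation factor of the core particle, REG, the alternative cap, Sem1, Ubqn and RpL40 had no IDR peak. The complexes built like the lid had peaks at 3 of 7 genes for the COP9 signalosome and 5 of 9 for the initiation factor eIF3. These were CSN3 (140), CSN5 (102) and CSN8 (90.5), and eIF3c (349), eIF3h (330), eIF3a (216), eIF3m (154) and eIF3f1 (91.5). Their intervals, 9.90 to 81.6% and 21.2 to 86.3%, overlap that of the lid (24.5 to 91.5%). All these intervals also cover the 26.3% of all coding genes, so the counts do not show a likeness to the lid in particular. In replicate 3, CSN8 ranked 11900 and eIF3f1 5528. The other COP9 signalosome and eIF3 genes with an IDR peak ranked there between 193 (eIF3c) and 2508 (CSN5).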

How the data were processed

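The files analysed hold peaks from 2 replicates of 1 group. Per the file headers and the notes deposited with them, the authors made candidate lists per replicate and for the pooled data against 1 control, and an optimal IDR set; the value used is the signal of each peak as deposited, and the summit its deposited offset. The alignment, the caller, the IDR threshold and the handling of multiply matching reads were not given in the sources used here. Lists on dm3 were not used. Exact duplicate lines were dropped. No read counts are listed, so no error can be put on a single signal.

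Starts came from Ensembl release 115 and sequence from the RefSeq release 6 assembly. A peak counted for every gene with a start within 500 bp of its summit. Replicate candidates had to overlap a peak by at least 50%. Motifs were searched on both strands. Proteins were aligned globally (gap opening 11, extension 1; Biopython 1.88), with pandas 2.3.3 and SciPy 1.17.1 for counts and intervals on Python 3.11.15. The counting was tested on simulated data. No p-value was computed. All members are named, as are the listed pathway genes with an IDR peak. The members and lists were chosen with earlier results of these data known.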

Additional observations from a re-analysis of the deposited data

How the results depend on the processing

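The 18 members with an IDR promoter peak were the same genes with windows of 250 and 1000 bp, which changed the count of coding genes from 3662 to 3127 and 3999. With the stronger 1947 IDR peaks only, 11 members and 2188 coding genes (15.7%) had one, with 1 core alpha, 0 core beta and 5 base genes; all 5 lid genes kept theirs. Counting each peak for the nearest coding gene left 13 members, with 0 core beta genes, and 2634 coding genes (18.9%). Using the 5-prime-most start of each gene left 16 members, with 3 lid genes and without Rpn6 and Rpn8, and 3428 coding genes. From 1 replicate alone the counts were 17 to 17 members, 3542 to 3610 coding genes and 8 to 8 base genes, with the other particles and the copies as reported: replicate 3 alone lost Prosalpha5 and Rpt6 and gained Prosalpha6, and replicate 2 alone lost Rpn13. The short DRE share fell from 61.1% of promoters to 35.0% when the 101 bases about the summits were searched, a shorter window. Taking the nearest instead of the strongest peak of a gene gave a median signal of 117. Leaving out Prosalpha1 and Prosalpha1R, an alternative chosen after the data were seen, kept 18 members and 0 copies. No paired analysis was possible because there was only 1 group.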
